A study of Mus musculus with 2 samples.

Results

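Imprinted genes are a set of 34 mouse genes, of 55233 annotated genes with a symbol of their own, that lie in 17 chromosomal clusters and are known to be transcribed mainly from a single parental copy in at least some tissues. They were chosen by symbol, coding or not, from their known imprinting and not by a threshold on values of these data. Open chromatin was mapped with DNase-seq, a method based on the nuclease DNase I, which cuts open DNA more often than closed DNA, in adrenal gland tissue of 25-day-old male B6CASTF1/J mice, the first generation of a cross between C57BL/6J and CAST/EiJ. There were 2 libraries, called replicate 1 and replicate 2, in 1 group. The labels number the animals separately but give both the same donor code, so differences between the libraries cannot be assigned to animals with certainty. Replicate 1 had 130945 DNase I hypersensitive sites (DHSs) and replicate 2 had 157786. The height of a DHS is the signal value that the authors deposited for it, read here as scaled to the size of the library, and a promoter is called open where any annotated start of the gene had a DHS within 1 kb. The files hold no allele-resolved values, so each height sums both parental copies, and DNA methylation was not measured.

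Imprinting rests on control regions whose DNA is methylated on the copy from a single parent. The mark is set in the germ line and is kept after fertilisation by the zinc finger proteins ZFP57 and ZFP445, which bind methylated DNA and recruit TRIM28, the histone methyltransferase SETDB1 and the DNA methyltransferase DNMT1. At the H19 control region the unmethylated copy is bound by CTCF, which insulates Igf2 from shared enhancers, and at Peg3 the first intron carries a run of sites for YY1. Several imprinted genes have known roles in the adrenal gland: Igf2 is a fetal growth factor often overexpressed in adrenocortical tumours, Cdkn1c encodes a cell cycle inhibitor whose human gain-of-function mutations cause adrenal hypoplasia, and Dlk1 encodes a transmembrane protein found on cells under the adrenal capsule.

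The sequences that follow are 300-base windows around the centres of 8 DHSs of control regions, given on the strand of the gene, from the C57BL/6J reference (GRCm38.p6, mm10 coordinates). The CAST/EiJ copy was not analysed here. They are shown for the letters of CTCF at H19, of ZFP57 at the next 5 DHSs and of YY1 at Peg3. Capitals mark 1 kind of letters in each window, although some windows hold another kind too. In the H19 windows, at chr7:142580171-142580470 and chr7:142580621-142580920, both between H19 and Igf2, capitals mark GCGNGGNGG, part of the CTCF site.
H19 upstream DHS 1: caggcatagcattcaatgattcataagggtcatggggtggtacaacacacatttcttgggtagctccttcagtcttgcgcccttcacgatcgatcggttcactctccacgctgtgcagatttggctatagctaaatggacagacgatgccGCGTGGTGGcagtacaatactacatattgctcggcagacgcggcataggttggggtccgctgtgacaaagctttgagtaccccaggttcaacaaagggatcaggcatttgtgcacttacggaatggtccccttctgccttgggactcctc
H19 upstream DHS 2: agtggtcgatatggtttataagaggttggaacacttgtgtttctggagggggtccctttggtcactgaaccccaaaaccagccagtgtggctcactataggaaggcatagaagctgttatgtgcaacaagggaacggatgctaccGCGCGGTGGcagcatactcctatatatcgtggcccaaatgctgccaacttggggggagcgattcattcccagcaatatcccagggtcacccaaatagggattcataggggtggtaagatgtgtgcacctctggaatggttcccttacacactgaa
Each H19 window held 1 match, and each match lay on the strand of H19. In the next windows capitals mark TGCCGC on either strand, the hexamer that ZFP57 binds when it is methylated. The Meg3 window, at chr12:109528191-109528490, lies between Dlk1 and Meg3 in the interval that carries the germ line mark of that cluster.
Meg3 upstream DHS: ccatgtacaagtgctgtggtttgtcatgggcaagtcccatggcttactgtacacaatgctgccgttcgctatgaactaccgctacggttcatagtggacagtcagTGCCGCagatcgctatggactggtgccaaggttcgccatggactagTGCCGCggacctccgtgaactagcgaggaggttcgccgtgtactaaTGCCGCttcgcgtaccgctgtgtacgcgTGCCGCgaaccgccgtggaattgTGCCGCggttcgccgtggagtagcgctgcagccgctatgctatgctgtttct
The Kcnq1ot1 window is at chr7:143295561-143295860, inside the noncoding RNA gene Kcnq1ot1 and in an intron of Kcnq1.
Kcnq1ot1 DHS: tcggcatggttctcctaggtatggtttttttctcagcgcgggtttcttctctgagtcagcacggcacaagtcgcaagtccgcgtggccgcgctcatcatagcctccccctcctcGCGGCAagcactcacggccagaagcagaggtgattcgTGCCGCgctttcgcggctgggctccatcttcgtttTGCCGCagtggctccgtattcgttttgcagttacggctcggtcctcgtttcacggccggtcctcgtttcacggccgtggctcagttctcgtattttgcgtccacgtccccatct
The Snrpn window is at chr7:60005001-60005300, over the downstream start of Snrpn.
Snrpn DHS: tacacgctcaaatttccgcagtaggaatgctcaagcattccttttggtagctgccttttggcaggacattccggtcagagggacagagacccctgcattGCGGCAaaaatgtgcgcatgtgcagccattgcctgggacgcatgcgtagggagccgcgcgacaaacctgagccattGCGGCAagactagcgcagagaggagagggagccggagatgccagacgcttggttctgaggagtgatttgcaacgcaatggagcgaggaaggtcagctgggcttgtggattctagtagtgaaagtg
The Mest window is at chr6:30737911-30738210, over the main group of Mest starts.
Mest DHS: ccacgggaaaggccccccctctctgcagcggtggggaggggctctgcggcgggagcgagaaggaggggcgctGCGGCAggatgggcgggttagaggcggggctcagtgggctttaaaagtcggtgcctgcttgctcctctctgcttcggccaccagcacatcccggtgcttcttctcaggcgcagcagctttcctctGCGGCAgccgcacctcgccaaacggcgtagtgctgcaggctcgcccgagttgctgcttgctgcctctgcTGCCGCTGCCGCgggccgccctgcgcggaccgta
The Peg13 window is at chr15:72809891-72810190, just inside the noncoding RNA gene Peg13, which lies within Trappc9.
Peg13 DHS: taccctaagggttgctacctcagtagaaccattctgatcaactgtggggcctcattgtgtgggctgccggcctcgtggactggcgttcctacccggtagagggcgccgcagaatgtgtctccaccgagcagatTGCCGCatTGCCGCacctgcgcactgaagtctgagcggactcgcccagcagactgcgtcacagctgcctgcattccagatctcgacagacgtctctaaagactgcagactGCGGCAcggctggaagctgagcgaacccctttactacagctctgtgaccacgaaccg
The last window, at chr7:6729431-6729730 in the first intron of Peg3, has capitals at AAGATGGCG on either strand, the letters of a YY1 site.
Peg3 DHS: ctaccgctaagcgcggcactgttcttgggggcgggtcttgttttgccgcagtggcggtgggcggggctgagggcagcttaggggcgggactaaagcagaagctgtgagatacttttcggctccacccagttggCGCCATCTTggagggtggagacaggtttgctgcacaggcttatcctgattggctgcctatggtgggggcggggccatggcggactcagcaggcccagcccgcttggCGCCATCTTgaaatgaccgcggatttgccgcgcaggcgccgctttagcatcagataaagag
The hexamer occurred 5 times in the Meg3 window, 4 times in the Mest window, 3 times each in the Kcnq1ot1 and Peg13 windows and 2 times in the Snrpn window. It also occurred, in lower case here, 3 times in the Peg3 window and 2 times in the first H19 window, and not in the other H19 window. The Meg3 and Kcnq1ot1 windows each held 1 match to GCGNGGNGG. The YY1 letters occurred 2 times in the Peg3 window. Such a match describes the letters and is not by itself a bound site.

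Of the 34 genes, 32 had an open promoter in both libraries, and the same 2, Rtl1 and Ndn, were closed in both. With windows of 2 kb in place of 1 kb, 33 were open and Rtl1 alone was closed, so the call for Ndn depends on the window. Over all annotated genes the share open was 39.5% in replicate 1, 40.4% in replicate 2 and 35.5% in both. Among protein-coding genes the shares were 70.5%, 70.3% and 67.0%, and 27 of the 29 protein-coding imprinted genes were open in both. A CpG-rich end at the first annotated base (a GC share of at least 50% and a CpG ratio, observed over expected CpG dinucleotides, of at least 0.6 in the 500 bp on either side) goes with openness in general: such protein-coding genes were open in 98.8%, 97.7% and 97.5%. All 14 imprinted genes with a CpG-rich end were open in both libraries, a share near that background, and 18 of the 20 others were. The end was judged at the first base alone, and no background share was computed for the 20 others. A DHS near any start makes a promoter open. Imprinted genes had a median of 5 annotated starts, beside 1 for all genes and 3 for protein-coding genes. The part of the number of starts in these shares was not tested.

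Open did not mean strong. The median promoter height of the 32 open imprinted genes was 5.22 in replicate 1 and 3.46 in replicate 2, against 8.84 and 6.19 for all open protein-coding genes and 6.84 and 4.33 for all open genes. Heights ranged from 0.750 to 23.9 in replicate 1 and from 0.684 to 20.8 in replicate 2. The 14 CpG-rich imprinted genes had medians of 7.28 and 6.26, below the medians of 11.8 and 8.56 of all open CpG-rich protein-coding genes. With 2 libraries of 1 group no test between groups can be made, so these are descriptions. Since a tissue is a mixture, fewer cells with an open promoter and less opening per cell cannot be told apart.

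**Figure D1:**
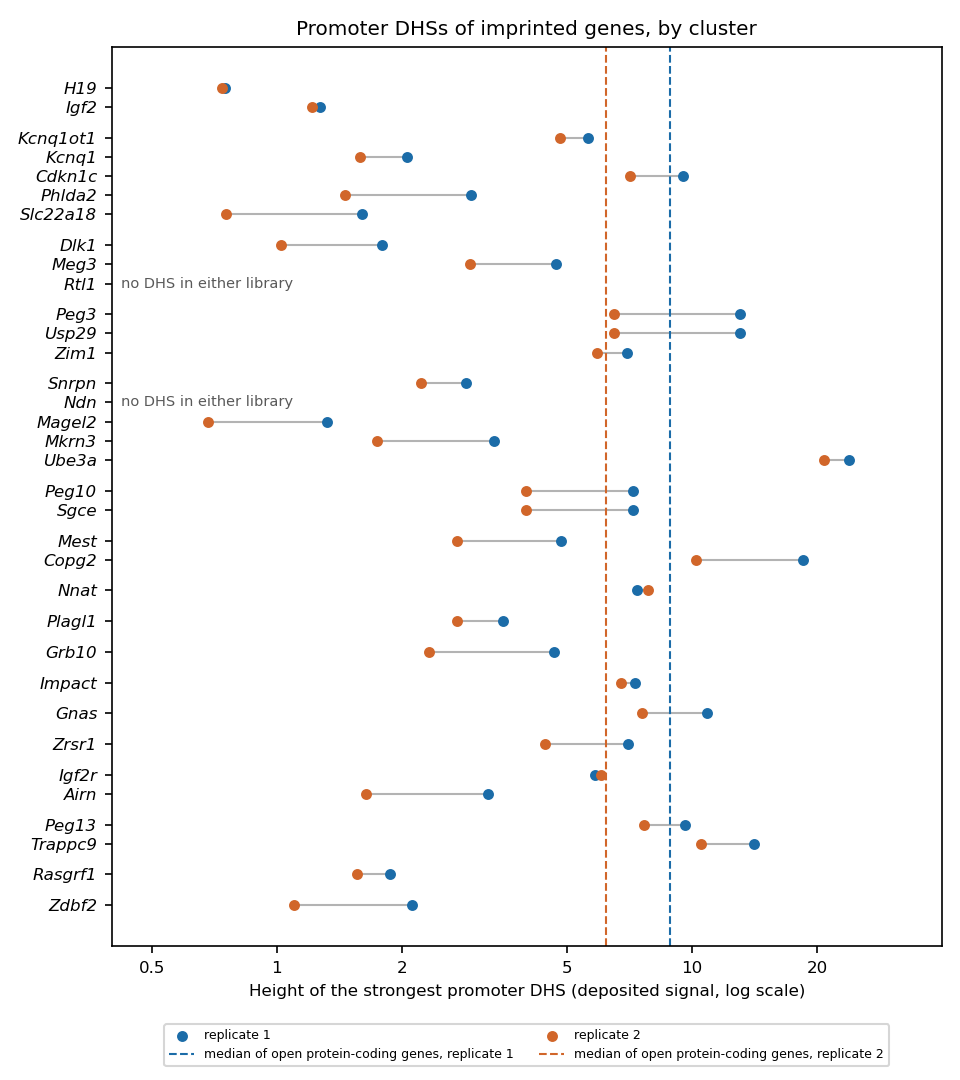
Height of the strongest promoter DHS (x axis, deposited signal on a log scale) of each imprinted gene (y axis, grouped by cluster) in replicate 1 (blue) and replicate 2 (orange), with dashed lines at the median of all open protein-coding genes of each library. Ube3a is the highest at 23.9 and 20.8, H19 lies at 0.750 and 0.737, and Rtl1 and Ndn have no point.

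In the H19-Igf2 cluster on chromosome 7, both promoters were among the weakest of the set. The promoter of H19, a maternally expressed noncoding RNA that restrains growth, had a height of 0.750 in replicate 1 and 0.737 in replicate 2. These were 2 DHSs that did not overlap each other, 79 bp upstream and 136 bp downstream of the first base of the gene, neither held a footprint, and neither library's shorter, stricter peak list contains them. Igf2, the paternally expressed growth factor, reached 1.27 and 1.22. Of its 6 groups of starts (starts under 1 kb apart were grouped), the one that lies 7327 bp from the first base was open in both libraries. Groups at the first base and 4946 bp into the gene were open in replicate 1 alone at 0.892 and 0.717, and a group 10798 bp in was open in replicate 2 alone at 0.773.

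The H19 control region, taken as the interval 2 to 5 kb upstream of H19, held 3 DHSs in replicate 1 and 2 in replicate 2. The DHS centred 2177 bp upstream of H19 had heights of 1.12 and 0.835, and the next, 2627 bp upstream, had 1.72 and 0.720. A DHS centred 3677 bp upstream had a height of 1.31 in replicate 1 and no counterpart in replicate 2. The pair found in both libraries are the ones printed above. A deposited footprint (a short stretch protected from cutting inside a DHS) touched the CTCF letters of the first, at chr7:142580312-142580320, in both libraries. Those of the other, at chr7:142580767-142580775, were touched in replicate 1 but not in replicate 2. Over all DHSs found in both libraries, 46.7% of 10985 matches to GCGNGGNGG were touched by a footprint in replicate 1 and 28.2% in replicate 2. Replicate 2 had 1 more DHS far upstream of H19, of 0.640 at chr7:142594261-142594412. In the 20 kb downstream of H19, which lies on the minus strand, no DHS was listed in either library. Within the deposited stretches with a false discovery rate (FDR) of at most 0.05, the control interval held 851 bases in replicate 1 and 298 in replicate 2.

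**Figure D2:**
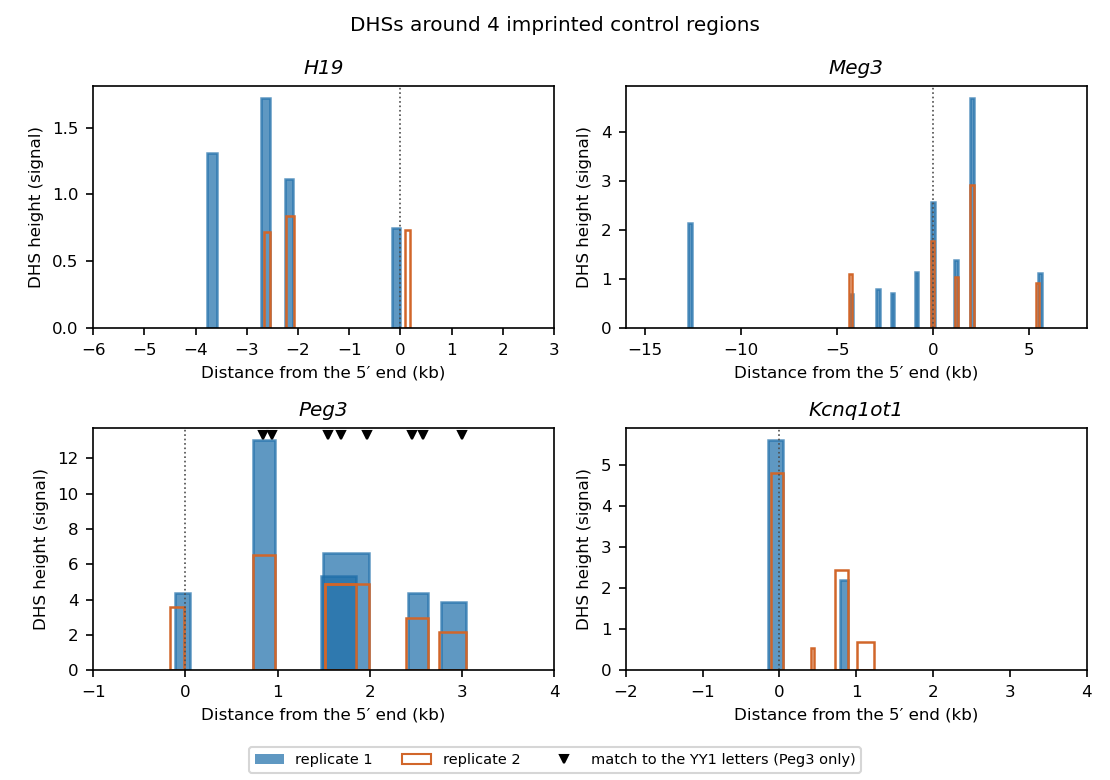
DHSs of replicate 1 (filled) and replicate 2 (outlined) around the first base (dotted line at 0) of H19, Meg3, Peg3 and Kcnq1ot1, with distance along the gene's strand in kb on the x axis and DHS height (deposited signal) on the y axis, which differs between panels. Bar width is the length of the DHS, with a minimum drawn width, triangles over Peg3 mark the 8 matches to the YY1 letters, and the DHS 12661 bp upstream of Meg3 appears in replicate 1 alone.

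The Kcnq1 cluster on the same chromosome held the most DHSs of the 17 clusters, 57 in replicate 1 and 45 in replicate 2. Its control region is the promoter of Kcnq1ot1, a paternally expressed RNA that silences its neighbours, which had a DHS over the start at 5.62 and 4.81 and a DHS 839 bp into the gene at 2.21 in replicate 1. The latter, printed above, was 2.45 in replicate 2, where its centre lay 809 bp in, and 1 of its 3 hexamers was touched by a footprint in both libraries. Over all DHSs found in both libraries, 26.8% of 9330 matches to TGCCGC were touched by a footprint in replicate 1 and 14.3% in replicate 2. Cdkn1c, the cell cycle inhibitor, was the strongest gene of the cluster at 9.52 and 7.09, with 8 and 6 footprints in its promoter DHS. Other genes of the cluster were lower: Kcnq1, a potassium channel, at 2.06 and 1.58, Phlda2, a growth restrictor of the placenta, at 2.94 and 1.46, and Slc22a18, a transporter, at 1.60 and 0.755. The Slc22a18 DHS lies 969 bp into the gene from the nearest start in replicate 1 and 919 bp in replicate 2, near the limit of 1 kb.

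Upstream of Cdkn1c a run of DHSs was present in both libraries and was lower in replicate 2. Centred 3030 bp upstream of the nearest Cdkn1c start was a DHS of 8.26 in replicate 1 and 3.25 in replicate 2, followed at 3890 bp by 4.08 and 2.01 and at 5430 bp by 5.90 and 2.28. Nearer to Slc22a18, a DHS 3596 bp upstream of its start had 6.30 and 2.13, and a DHS in its intron, 5609 bp from the start, had 5.43 and 2.51. The log2 ratio of replicate 2 over replicate 1 was between -1.02 and -1.56 for these 5 DHSs, while that of the Cdkn1c promoter was -0.42. Across the cluster, 25 DHSs away from starts were found in both libraries, with a median ratio of -1.0 and 13 at least 2-fold lower in replicate 2. Over all 51239 such DHSs the median was -0.28 and 19.1% were at least 2-fold lower. In an intron of Kcnq1, the strongest DHS away from starts of the cluster was at 10.4 and 4.99.

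In the Dlk1-Meg3 cluster on chromosome 12, Meg3 was open, Dlk1 weak and Rtl1 closed. Meg3, a maternally expressed noncoding RNA, had 4.70 in replicate 1 and 2.92 in replicate 2 at a DHS 2029 bp into the gene, and 2.57 and 1.77 at its first start. Dlk1 had 1.79 and 1.02 at its promoter. A DHS 14913 bp upstream of Dlk1 was much higher than the promoter itself, at 11.4 and 6.15, and it lies in no annotated gene. Rtl1, a retrotransposon-derived gene of the placenta, had no promoter DHS in either library and no base at an FDR of at most 0.05 within 1 kb of its start. The interval 10 to 16 kb upstream of Meg3 held 1 DHS in replicate 1, at 2.14 and with 2 footprints, and none in replicate 2, where 24 bases of the interval stood at an FDR of at most 0.05, against 256 in replicate 1. That DHS is the printed window with 5 hexamers, none of which was touched by a footprint. Of these, 3 lie inside the DHS itself. Over all DHSs found in both libraries, a footprint touched 26.8% of the hexamers inside them in replicate 1 and 14.3% in replicate 2.

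At the Peg3 cluster, near the start of chromosome 7, Peg3 and Usp29 had the same strongest promoter DHS. Peg3 encodes a paternally expressed zinc finger protein, and Usp29 a ubiquitin protease transcribed in the opposite direction. That DHS, 851 bp into Peg3 and at the very edge of the 1 kb window upstream of Usp29, had 13.1 in replicate 1 and 6.50 in replicate 2. A DHS at the Peg3 start, which is nearer to the Usp29 start, had 4.34 and 3.55. Further into the first intron followed DHSs of 6.62 and 4.90 at 1741 bp, 4.37 and 2.98 at 2521 bp, and 3.85 and 2.18 at 2911 bp (positions of replicate 1), with an overlapping entry of 5.35 and 4.89 at 1661 bp. Zim1, a neighbouring zinc finger gene, had 6.97 and 5.91 over its own start.

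A run of YY1 sites is already known in the first intron of Peg3, as stated above, so matches there are no new finding. The DHSs of that intron held 8 matches to the YY1 letters AAGATGGCG, the first 838 bp and the last 3004 bp from the first base of Peg3. A footprint touched 7 of the 8 in replicate 1 and 3 in replicate 2, against 59.1% and 38.8% of the 624 matches in all DHSs found in both libraries. Both matches in the printed window were touched by footprints in both libraries. The DHS over the Peg3 start held no match. For scale, 0.893% of all DHSs found in both libraries held the letters within 150 bp of their centre, and 3.10% of the strongest promoter DHSs of protein-coding genes did.

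In the Snrpn-Ube3a cluster, the region of the Prader-Willi and Angelman syndromes, lay both the strongest promoter of the set and a promoter closed by the 1 kb rule. Ube3a, a ubiquitin ligase imprinted in neurons, had 23.9 and 20.8, in the top few percent of open genes (percentiles of 96.5 and 98.4). Snrpn, a splicing protein gene whose promoter is the control region, had 2.85 and 2.23 at its downstream start, 135069 bp from the first base in replicate 1. At the upstream start a DHS of 0.158 was listed in replicate 1 and none in replicate 2. Mkrn3, a regulator of puberty, had 3.33 and 1.74, and Magel2, which acts in protein recycling, had 1.32 and 0.684. Ndn, a gene of neurons, had no promoter DHS, and no base within 1 kb of its start reached an FDR of 0.05 in either library. Its nearest DHS lay 1711 bp downstream of the start, in the exon, at 5.78 in replicate 1 and 1.79 in replicate 2. Ndn would count as open with windows of 2 kb.

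Among the maternally methylated promoters elsewhere, Peg10 and Sgce shared 1 DHS between their starts, at 7.19 and 3.99. Peg10 is derived from a retrotransposon and is needed in the placenta, and Sgce encodes a sarcoglycan. A stronger DHS lay 1914 bp into Peg10, in its intron, at 14.6 and 9.19. Mest, a hydrolase-like gene, was open at 1 of its 6 groups of starts, 14503 bp from its first base. There the highest DHS was 4.82 in replicate 1, 930 bp before the nearest start, and 2.71 in replicate 2, over the start, where replicate 1 had 4.77. The upstream DHS had 2.02 in replicate 2. Its neighbour Copg2, a coat protein gene, had 18.5 and 10.2, a DHS that lies between Copg2 and a noncoding gene.

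Nnat, Plagl1, Zrsr1, Peg13 and Airn were open in both libraries at values that spread widely. Nnat, a small membrane protein gene inside an intron of Blcap, had 7.37 and 7.83 at a DHS 1302 bp from its first base, and 1.07 and 0.604 at a DHS over its first base. Plagl1, a zinc finger gene of growth control, had 3.51 and 2.72 at 1 of 4 groups of starts. Zrsr1, a splicing factor gene, had 7.0 and 4.41. Peg13 had 9.63 and 7.66, and Trappc9, the trafficking gene around it, 14.1 and 10.5. The DHS of 23.4 and 20.4 that lies 6446 bp upstream of Trappc9 was the highest DHS away from starts near any imprinted gene. Airn, the noncoding RNA that silences Igf2r, had 3.22 and 1.64. Igf2r, the receptor that clears IGF2, had 5.83 and 6.02. By the strongest promoter DHS of each gene, Igf2r and Nnat were the genes without a lower value in replicate 2.

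Genes with several promoters were open at some of them and closed at others. Gnas, which encodes the stimulatory G protein subunit through which the receptor for adrenocorticotropic hormone signals, had 6 groups of starts. Its main starts, 45686 bp from the first base, had the highest DHSs of the gene, at 10.9 and 7.59, which are neighbouring DHSs and not the same one. The group 43250 bp in had 3.76 and 2.76, again at different DHSs, that at the first base 1.53 and 0.791, and that 13539 bp in 0.650 and 0.684. The order of these 4 groups was the same in both libraries. A group of 1 start 60330 bp in, for a transcript that keeps an intron, had 4.86 and 5.54.

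Grb10, an adaptor that restrains growth through the insulin receptor, was open at 3 of 8 groups of starts in both libraries. Heights were 4.66 and 2.33 at the group 11951 bp from the first base, 4.02 and 2.13 at 1282 bp, and 0.692 and 0.480 at the first base. The remaining 5 groups, which include every group over 60 kb from the first base, had no DHS in either library. Impact, a regulator of protein synthesis, had 1.72 and 1.52 at its first start and 7.29 and 6.72 at the shared DHS of its next groups, the first of them 16071 bp into the gene, where its control region lies. Rasgrf1, an exchange factor for Ras, had 1.87 and 1.56, and Zdbf2, a zinc finger gene, 2.12 and 1.10, both at their first base.

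**Figure D3:**
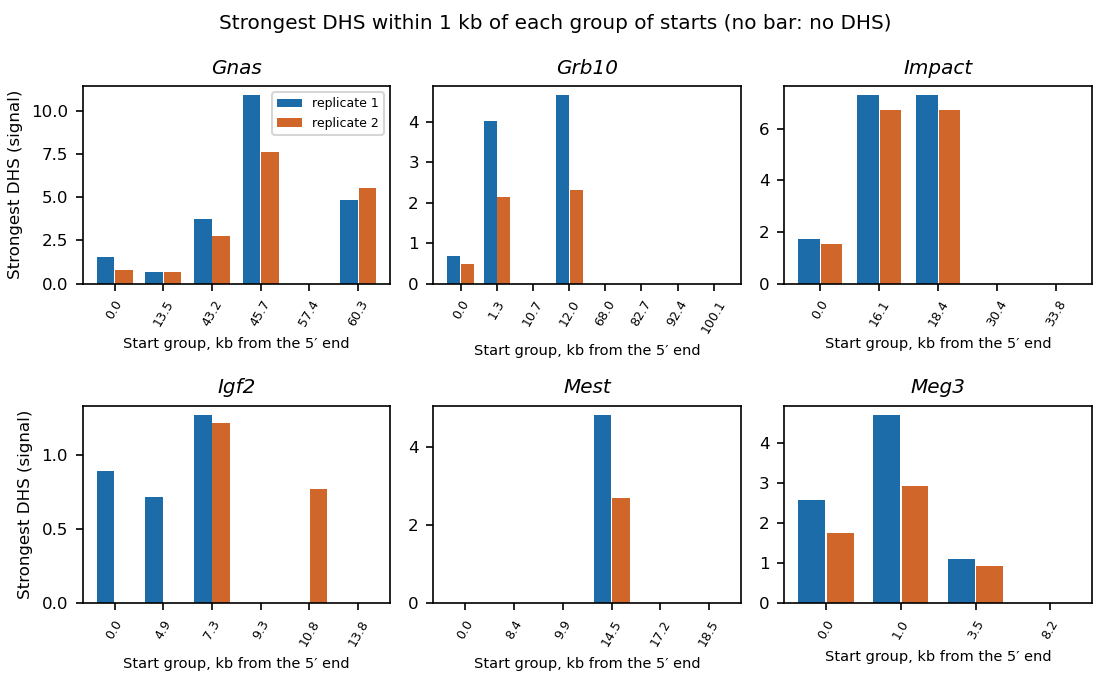
Strongest DHS within 1 kb of each group of annotated starts (y axis, deposited signal, scale differing between panels) of 6 imprinted genes, by the distance of the group from the first base of the gene (x axis, kb), in replicate 1 (blue) and replicate 2 (orange). Missing bars are groups with no DHS; Mest is open at 1 of 6 groups and Gnas at 5 of 6.

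Over all 34 genes there were 88 groups of starts, of which 44 had a DHS in both libraries. Of the 34 groups that hold the first annotated base, 27 did. In 9 of the 20 genes with several groups the highest DHS of replicate 1 lay at another group than the first: Gnas, Grb10, Igf2, Impact, Meg3, Mest, Plagl1, Slc22a18 and Snrpn. The same counts were not made over all genes, so they cannot be read as particular to imprinted genes. By the parental copy that textbooks give as active, the 21 paternally expressed genes had a median height of 4.82 in replicate 1 and 2.72 in replicate 2, with 19 open, and the 12 maternally expressed genes 5.27 and 4.41, with 12 open. The ranges overlapped, from 1.27 to 13.1 and from 0.750 to 23.9 in replicate 1. Gnas, with promoters of both kinds, was counted in neither group.

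Intervals taken as control regions at gene starts all held DHSs, and those between genes did in part. Each interval at gene starts spans 1 kb on either side of every annotated start of its gene, not the methylated promoter alone. At Gnas the strongest DHSs, at 10.9 and 7.59, lie at the main starts. Of 18 intervals taken as control regions from textbook positions, 16 held a DHS in both libraries. All 14 that lie at gene starts did, with strongest DHSs of 2.85 to 13.1 in replicate 1 and 1.64 to 7.83 in replicate 2. These 14 are the promoter windows of genes already counted above as open, so this count repeats that result. The 4 upstream intervals are those of H19, Meg3, Rasgrf1 and Zdbf2, which are methylated on the paternal copy. No share over other intervals of such lengths was computed. Those of H19 and Rasgrf1 held a DHS in both libraries, that of Meg3 in replicate 1, and that of Zdbf2, 8 to 16 kb upstream of the gene, in neither. Upstream of Rasgrf1, a DHS 35228 bp from the gene had 1.83 in replicate 1 and 3.29 in replicate 2, higher in replicate 2 where most promoters of the set were lower. In replicate 2 it was above the strongest DHS at the starts of Airn, Snrpn, Grb10, Mest, Plagl1 and Meg3. Its window had a CpG ratio of 0.301. The Rasgrf1 interval held other DHSs in replicate 1 alone, of 0.767 at 37545 bp and 0.450 at 30133 bp. The window of the latter had a CpG ratio of 1.03 and 5 hexamers. That Rasgrf1 counts among the intervals with a DHS in both libraries thus rests on the DHS at 35228 bp. No base of the Zdbf2 interval stood at an FDR of at most 0.05 in either library.

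The ZFP57 hexamer was frequent in the DHSs of control regions. Of the 52 DHSs of control regions found in both libraries, 23 (44.2%, 95% Wilson interval 31.6 to 57.7%) held TGCCGC on either strand within 150 bp of their centre, and 14 of the 16 control regions with such a DHS had at least 1 that did. The exceptions were the starts of Zrsr1 and Meg3. Since every annotated start was taken, 11 of the 52 DHSs lie at starts of Gnas, 6 at those of Grb10 and 6 at those of Impact. A region with more DHSs has more windows in which a match can fall. No count per region was made over other regions, so the 14 of 16 has no background. Over all 81485 DHSs of replicate 1 found in both libraries the share was 12.3%, over the strongest promoter DHSs of protein-coding genes 25.2%, and over 300-base windows at the starts of protein-coding genes 17.2%. The hexamer contains a CpG, and the DHSs compared differ in CpG content: the median CpG ratio was 0.737 in the control regions, 0.335 in all DHSs found in both libraries and 0.791 in the promoter DHSs of protein-coding genes. The part of CpG content in these shares was not tested. Windows of neighbouring DHSs can overlap, and the interval covers counting error alone. The other letters searched in the same 52 windows are given beside both backgrounds. GCGNGGNGG was in 12 (23.1%), beside 11.9% of all DHSs found in both libraries and 30.8% of the promoter DHSs of protein-coding genes. AGNNGGCGC, another part of the CTCF site, was in 7 (13.5%), beside 10.7% and 16.9%. TGANTCA of AP-1 was in 5 (9.62%), beside 16.6% and 4.81%. GCGCATGCG of NRF1 was in 3 (5.77%), beside 0.920% and 3.55%, and the YY1 letters in 1 (1.92%), beside 0.893% and 3.10%. TCAAGGTCA of SF-1, the regulator of steroid genes, was in none, beside 1.16% and 0.276%.

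**Figure D4:**
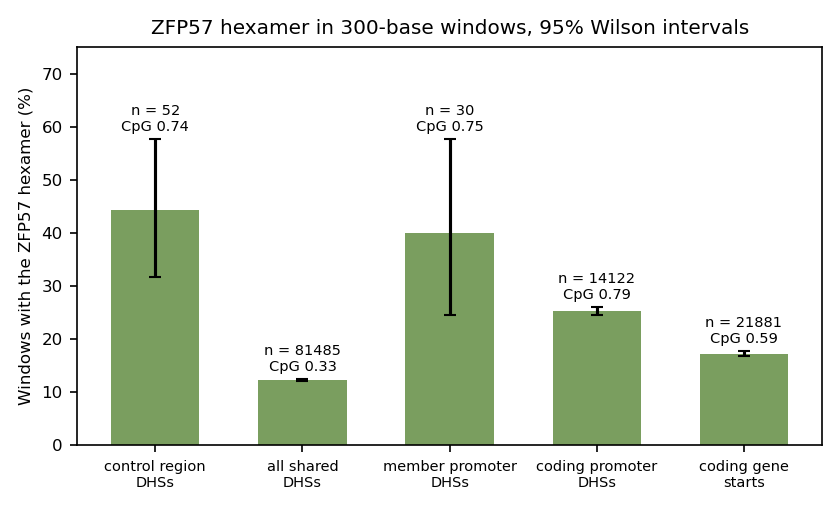
Share of 300-base windows that hold the ZFP57 hexamer on either strand (y axis, %, bars with 95% Wilson intervals) in 5 sets of windows (x axis), each with its number of windows and median CpG ratio. The control region DHSs stand at 44.2%, the promoter DHSs of imprinted genes at 40% and those of all protein-coding genes at 25.2%.

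Heights of imprinted promoters were lower in replicate 2 for 30 of 32 genes, as they were for most genes. The median log2 ratio of replicate 2 over replicate 1 was -0.59 (SD 0.37 across the 32 genes), beside -0.45 over all genes open in both and -0.34 over 81485 DHSs found in both libraries. Relative to the last value 22 of the 32 were lower and 10 higher, and with heights divided by each library's summed height (a shift of -0.40) 19 were lower and 13 higher, so the split depends on the scaling. No imprinted gene was past 2-fold in either direction relative to the median of all DHSs found in both libraries, where 4.5% of genes open in both were lower and 2.21% higher. The lowest ratios were those of Slc22a18 (-1.08), Phlda2 (-1.01), Peg3 and Usp29 (-1.01) and Grb10 (-1.0), and the highest those of Nnat (0.09) and Igf2r (0.05).

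Around the 34 genes (gene body and 20 kb on either side) lay 321 DHSs in replicate 1 and 287 in replicate 2. The median per gene was 10 and 8, beside 6 and 6 for protein-coding genes, or 1.22 and 0.957 per 10 kb beside 0.844 and 0.859. Trappc9, the longest gene, had 47 and 41, and Cdkn1c the most per 10 kb, at 3.04 in both. Ube3a had 3 and 9, of which 1 of replicate 1 recurred in replicate 2, although its promoter DHS was the set's strongest. Of the DHSs around the genes, 64.8% of replicate 1 were found again in replicate 2 and 72.1% of replicate 2 in replicate 1, beside 62.2% and 51.8% over all DHSs. Those around the genes were more often at promoters, in 39.9% and 36.6% beside 30.0% and 25.4%. Their median heights were also higher, at 1.15 and 0.986 beside 1.01 and 0.720. The part of place and height in the shares found again was not tested. At least 1 footprint lay in 29 of 30 distinct promoter DHSs of replicate 1 and in 28 of 30 of replicate 2, beside 93.4% and 85.1% of the promoter DHSs of all genes. The exceptions were H19 in both libraries and Slc22a18 in replicate 2.

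Most genes for the proteins that set and keep imprints had open promoters. Of 22 such genes, replicate 1 had 21 with an open promoter and replicate 2 had 20, all of these in both, with median heights of 11.3 and 8.76. Over all protein-coding genes 67.0% were open in both, with medians of 8.84 and 6.19, and 97.5% of those with a CpG-rich end were. The highest of replicate 1 were Kdm1b, a histone demethylase of the oocyte, at 24.0 and 18, Yy1 at 21.2 and 18.4, and Ezh2, the Polycomb methyltransferase, at 20 and 14.2. In replicate 2 Yy1 stood first, and Dnmt1, at 15.5 and 14.6, stood above Ezh2. Ctcfl, a germ line relative of Ctcf, had no promoter DHS, and Dppa3, an oocyte factor that protects maternal methylation, had 0.617 in replicate 1 and none in replicate 2. Zfp57 was low at 0.867 and 0.959, while Zfp445 stood at 4.17 and 3.69.

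Of 47 further genes of imprinted domains, 37 had an open promoter in both libraries and 5 more in replicate 2 alone. Over all annotated genes 35.5% were open in both, over protein-coding genes 67.0%, and over those with a CpG-rich end 97.5%. The median height of the open genes of this list was 4.57 in replicate 1 and 2.15 in replicate 2. Over all open protein-coding genes it was 8.84 and 6.19. The strongest of replicate 1 were Commd1 at 20.2 and 12.2, Inpp5f at 19.2 and 11.8, and Nap1l4 at 17.3 and 14.6, while Tssc4, at 11.6 and 15.6, was the strongest of replicate 2. Mirg, Zim2, Usp17la, Cpa4 and Gpr1 were closed in both libraries. Zim3 and Zfp264 shared a height of 0.426 in replicate 2 and were closed in replicate 1, as were Tspan32 (1.21 in replicate 2), Calcr (0.604) and Slc22a2 (0.648). All 5 genes open in replicate 2 alone were at or under 1.21.

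The libraries carried the marks of adrenal tissue and differed in some of them. All 8 promoters of steroid cortex markers and those of the chromaffin cell markers Th, Dbh, Chga and Chgb were open in both libraries, while Pnmt was closed in both. The kidney and liver markers Umod, Slc12a1, Alb and Apoa1 had no promoter DHS in either. The summed height of the steroid cortex markers was 48.8 in replicate 1 and 26.5 in replicate 2, that of these 4 chromaffin cell markers 21.4 and 9.32, and that of the macrophage markers 1.62 and 3.34, with Csf1r, Adgre1 and Cd68 closed in both. The open macrophage markers were Spi1, at 1.16 and 2.88, and Ptprc, at 0.458 and 0.462, so the difference in their sum lies in Spi1. The lymphocyte markers Cd3e and Cd79a were open in replicate 2 alone, at 0.577 and 1.83. The part of cell makeup in the lower heights of replicate 2, the DHSs upstream of Cdkn1c included, was not tested.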

How the data were processed

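DNase-seq lists of 2 adrenal gland libraries of 1 group were used, all in mm10 per the labels. Of the 2 peak lists per library, the longer was used. The height of a DHS is a signal value deposited by the authors. All heights were whole multiples of a step, within 0.01 of a step, and a step of 0.00833 and 0.00888 read as CPM gives library totals of 120 and 112.6 M, an inference. The deposited FDR list (q-values, at most 0.05) and footprints (FDR 0.01) come from the authors, while the sources used here do not name the aligner or callers.

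Genes and starts came from GENCODE M21, without repeated symbols. Python 3.11.15 with numpy 2.4.6, pandas 2.3.3 and scipy 1.17.1 was used. Overlap means at least 1 bp. The scripts were tested on simulated data. All 34 members were named. From the other lists, genes with no promoter DHS in 1 or both libraries and the 3 strongest of replicate 1 were named. Zfp57, Zfp445, Dnmt1 and Tssc4 fall outside that rule and were named after their values were seen. Members, lists, control intervals and letters were chosen with earlier results of these data known, and the 5 DHSs upstream of Cdkn1c, the Peg3 intron matches, the printed windows and the grouping by parental copy after their values were seen. Alternatives were other windows, flanks, lists, scalings, overlaps and single libraries. The precision of a height is limited by the library total, and no error between animals can be given from 2 libraries. Some cell type markers are not reported here.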

Additional observations from a re-analysis of the deposited data

How the results depend on the processing

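Of 40 alternatives over 8 results, 35 moved a value by less than the spread between libraries or genes, or a count by less than 1.5 times, and none reversed a direction. For promoter height, DHSs found in both and footprints, the spread was the SD of the same 2 libraries. Leaving out a library could not pass that spread, so those alternatives fall among the 35 by construction and say nothing about robustness. The number of imprinted genes open in both libraries was 26 to 33 and that of control regions 15 to 17. The shorter peak lists lack the H19 promoter, the H19 upstream interval and Slc22a18 in at least 1 library, so these rest on the longer lists. The median number of DHSs per gene, 9 as the mean of both libraries, was 4.75 with no flank and 5 with the shorter list, as fewer bases or fewer DHSs were counted. With the shorter list the share of DHSs found in both libraries was 74.8% in place of 68.5%, and the share of promoter DHSs with a footprint 98.2% in place of 95%; the cause was not tested. The median log2 height ratio was -0.20 with heights divided by their sum, in place of -0.59, by construction of that scaling. Leaving out a library gave medians of 3.46 to 5.22 for promoter height, 8 to 10 for DHSs per gene, shares of 64.8 to 72.1% for DHSs found in both and of 93.3 to 96.7% for footprints, 32 open genes in either case, and 16 to 17 control regions. TGCCGC was in 29 of 52 control region DHSs with wider windows, in 21 within the DHS itself, and in 16 of 38 with the shorter list. DHSs with heights near the lowest listed cannot be told from closed chromatin at this depth.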

Other observations

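For some imprinted genes the strongest DHS nearby stood at the start of a neighbour. Near Zrsr1 the highest DHS, at 20.2 in replicate 1 and 12.2 in replicate 2, lay over the start of Commd1, and near Impact the highest, at 14.7 and 7.89, lay over the start of Osbpl1a. Within Usp29, far from its promoter, a DHS had 6.52 in replicate 1 and 0.986 in replicate 2, a log2 ratio of -2.72, the lowest of the DHSs around imprinted genes away from starts that were found in both libraries. Of the 120 DHSs around imprinted genes that lie away from starts and were found in both libraries, 26 (21.7%) held TGANTCA of AP-1, near the 22.2% of all such DHSs, and none held TCAAGGTCA of SF-1, found in 1.55% of all.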
